A study of Mus musculus with 9 samples.

Results

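The wild-type colonic mucosa described here is the WT group of a mouse study of gastrin, and it consists of the 3 arrays titled as WT among 9 arrays in all. The other groups are 3 arrays from gastrin knockout mice (Gas-/-, called GasKO) and 3 from mice labelled as hGas transgenic (called hGAS). All 9 arrays came from male mice on the C57BL/6 background at 6 weeks of age, and all used colonic mucosa that had been lifted off by injecting PBS into the submucosa. Total RNA was hybridised to Affymetrix arrays, and the values are log2 GCRMA signals, so a difference of 1 is a doubling of signal. The labels give neither the promoter nor the cell type that drives the hGas transgene, and they do not say whether each array is a separate mouse or where along the colon the mucosa was taken. The p-values below therefore measure the spread between these arrays, which may be technical.

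The inner lining of the colon is a single epithelial sheet folded into crypts. Stem cells at the crypt base feed absorptive colonocytes, which take up salt, water and short-chain fatty acids, and goblet cells, which secrete the mucus that keeps bacteria at a distance; scattered enteroendocrine and tuft cells sense the lumen. Beneath the sheet lies the lamina propria, with fibroblasts, vessels, nerve fibres, macrophages and the plasma cells that make IgA. Gastrin is a stomach hormone whose precursor and receptors have been studied as growth signals for this epithelium.

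Each of the 18193 genes was represented by 1 probe set, the one with the highest mean over all 9 arrays. A value of log2 4 served as the background line. Olfactory and vomeronasal receptor genes, most of which are expressed chiefly in sensory epithelium of the nose, were a check of it: 69 of 71 lay under log2 4 on all 3 WT arrays, with a median WT mean of 2.29. The exceptions were Olfr78 (6.00, 5.47 and 6.10 on WT replicates 1, 2 and 3, the order used throughout) and Vmn2r29 (4.38, 4.36 and 4.58). Above the line on all 3 WT arrays were 11056 genes (60.8%), under it on all 3 were 6898 (37.9%), and 239 (1.31%) were above it on 1 or 2 arrays. The median WT mean was 6.11 and the means ran from 1.11 to 14.92, with 5690 genes (31.3%) at or above log2 8 and 405 at or above log2 12. The same count of genes above the line on all 3 arrays was 11116 in GasKO and 11071 in hGAS. Only 34 genes were under the line on all 3 WT arrays and above it on all 3 GasKO arrays, and 11 were so in hGAS, with no gene in both.

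**Figure D1:**
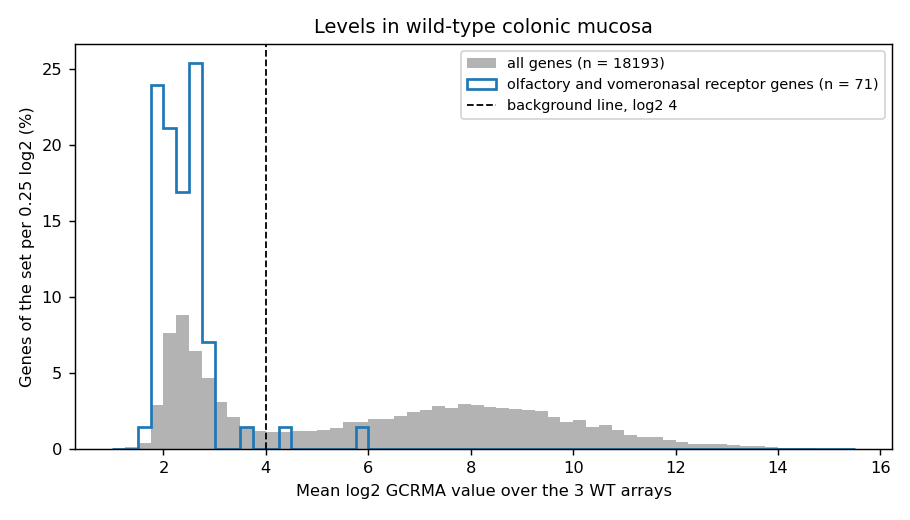
Distribution of the mean log2 GCRMA value over the 3 WT arrays (horizontal axis) as the percentage of genes per 0.25 log2 (vertical axis), for all 18193 genes in grey and for 71 olfactory and vomeronasal receptor genes in blue; the dashed line is log2 4. The receptor genes pile up around their median of 2.29, on the low peak of all genes, and the broad right-hand peak holds the 60.8% of genes above the line on every WT array.

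The WT arrays were alike in their distributions, with medians of 4.13 to 4.14 over all 45101 probe sets. Over the 11273 genes tested, WT replicates 1 and 2 correlated at 0.994, replicates 1 and 3 at 0.992 and replicates 2 and 3 at 0.991 (Pearson's r across genes, which are not independent replicates). WT replicate 3 nevertheless stood apart for a set of genes described further on, and some of the results that rest on it are given with and without it. The Y chromosome genes Eif2s3y (9.81, 9.71 and 8.99), Kdm5d (8.12, 8.06 and 7.83) and Uty (6.33, 6.32 and 6.28) were above the line on every WT array. Xist, the RNA of the inactive X chromosome, was under it (2.73, 2.75 and 2.68). The labels give every mouse as male.

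The brightest signals came from secreted mucus products and the translation machinery. Probe sets bind their targets with different strength, so any order of genes or lists given here is one of signal and not of transcript number. The brightest 1% were 182 genes, with a WT mean of 12.84 or more and the next gene at 12.83. Whether signals near the top of the scale were compressed was not tested. Of the 182 genes, 35 encode ribosomal proteins, although such genes made up only 0.275% of the genes (50 of them measured). A further 20 belong to the respiratory chain and ATP synthase, 5 are translation factors, 34 are in the epithelial lists, 7 in the stromal lists and 1, Igha, in the immune lists, which leaves 80 of other kinds. The choice of probe set matters for single genes: 116 of the 182 had more than 1, and 33 of those had a probe set under the line.

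The highest signal was that of Zg16 (14.97, 14.93 and 14.86; mean 14.92 ± 0.05, SD, n = 3), a goblet cell lectin that binds Gram-positive bacteria. Clca1, a secreted metalloprotease of mucus, read 14.98, 14.73 and 14.63, and its other probe set read 9.82, 9.02 and 8.54. Tff3, the intestinal trefoil peptide, read 14.60, 14.61 and 14.59. Muc2, the gel-forming mucin from which colonic mucus is built, read 14.67, 14.58 and 14.33. Among the probe sets that stood for these genes the widest range was 0.35 log2, for Clca1, and its other probe set ranged more widely. Muc3, a mucin of the colonocyte surface, was as steady at 14.60, 14.58 and 14.64. Klk1, tissue kallikrein, read 14.49, 14.51 and 14.48. Lypd8, a colonocyte surface protein that holds flagellated bacteria off the epithelium, read 14.35, 14.30 and 14.33. Among the housekeeping genes, Rps29 (mean 14.85), Rplp0 (14.60) and Rpl13a (14.45) of the ribosome, Eef1a1 (14.38), the elongation factor that brings aminoacyl-tRNA to it, and Cox6a1 (14.41) of cytochrome c oxidase were in the same tier. So were the cytoskeletal genes Actb (14.24), Actg1 (14.17), Krt8 (14.15) and Krt19 (14.01), the last pair encoding simple-epithelial keratins, and the galectin genes Lgals3 (14.27) and Lgals4 (14.24).

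Markers of the absorptive and secretory lineages were nearly all above the line. All 22 measured colonocyte markers were above the line on every WT array, with a median WT mean of 12.81 and 11 of them in the brightest 1%. Ceacam1, an adhesion molecule of the brush border, read 13.88, 13.91 and 13.69. Car1, a cytosolic carbonic anhydrase, read 13.69, 13.87 and 13.65. Its membrane-bound relative Car4 read 13.47, 13.59 and 13.63, and Guca2a, the precursor of guanylin, a peptide that drives chloride and bicarbonate secretion, read 13.40, 13.37 and 12.96. Of the 19 goblet cell markers, 18 were above the line, with a median of 11.13 and 8 in the brightest 1%. The exception was St6galnac1, which encodes a sialyltransferase of mucin glycans, at 2.89, 2.92 and 2.78. On the hGAS arrays it was also under the line (2.94, 2.82 and 2.88), while on the GasKO arrays it read 9.19, 8.87 and 9.25.

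Deep crypt secretory cells, which sit among the stem cells of the colon, were represented by 5 of 6 markers. Mptx1, a mucosal pentraxin, read 14.23, 13.83 and 13.84. Reg4, the marker by which these cells are best known, read 12.57, 12.25 and 12.75. Ang4, a ribonuclease with antimicrobial activity, was far less steady at 13.50, 12.39 and 10.27. Agr3 was under the line, with a mean of 2.19. In the stem cell list 12 of 13 markers were above the line, with a median of 7.15. Lgr5, the receptor for R-spondins that defines crypt base stem cells, read 6.98, 6.02 and 6.85. Prom1, which is also made outside the stem cells, read 12.09, 12.17 and 11.41. Olfm4, a stem cell marker of the small intestine, was under the line at a mean of 2.70. All 19 cycling-cell markers were above it with a median of 9.68, among them Pcna, the sliding clamp of DNA polymerase (11.84, 12.03 and 12.05), and Mki67 (10.86, 10.43 and 10.64).

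Markers of the rare sensory cells were above the line in part. Of 18 enteroendocrine markers 13 were above the line, with a median of 6.48. Cpe, a prohormone-trimming carboxypeptidase, read 11.83, 12.01 and 11.89. Insl5, a peptide hormone of colonic L cells, read 11.32, 11.25 and 11.30. Pyy (10.67, 10.64 and 10.64) and Gcg (10.47, 10.41 and 9.94), which encode the L cell hormones peptide YY and the glucagon-like peptides, were also well above the line. Cck and Nts, hormones made chiefly in the small intestine, were under it with means of 3.56 and 2.78. Of 12 tuft cell markers only 5 were above the line on every WT array. Alox5ap, needed for leukotriene synthesis, read 6.88, 6.78 and 6.81, and Dclk1 read 6.51, 6.38 and 6.61. Pou2f3, the transcription factor that specifies tuft cells, was under it (2.19, 2.21 and 2.16). In bulk mucosa fewer cells of a type and less RNA per cell cannot be told apart.

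The lifted mucosa also held muscle and connective tissue. All 13 smooth muscle markers were above the line, with a median of 12.16 and 5 in the brightest 1%. Acta2, smooth muscle actin, read 13.85, 13.88 and 13.96. Myh11, smooth muscle myosin, read 13.10, 13.25 and 13.30. The fibroblast list had 17 of 18 above the line, led by Col3a1, a chain of fibrillar collagen (13.68, 13.69 and 13.88), and Postn (12.87, 12.76 and 13.04). Pericyte markers were above it in 6 of 6 cases, endothelial markers in 13 of 14 and enteric neuron markers in 10 of 11. Vip, the relaxing neuropeptide of the gut wall, read 9.96, 9.95 and 10.18. Of 5 glial markers only Erbb3 (11.72, 11.77 and 11.75), which epithelium also expresses, and Sox10 (4.17, 4.18 and 4.14) were above the line.

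Among immune cells, plasma cells and macrophages were visible, B cell markers were above the line in part and T cells were barely visible. Igha, the IgA heavy chain, read 13.79, 13.90 and 13.17. Jchain, which links IgA dimers, read 11.72, 11.72 and 10.60. The receptor that carries them across the epithelium, Pigr, read 13.96, 13.90 and 13.97. For macrophages 14 of 16 markers were above the line, with Csf1r, the receptor for their growth factor, at 9.40, 9.51 and 9.49, and C1qb at 9.47, 9.48 and 9.49. Lyz2 read 11.12, 11.10 and 11.18 and Lyz1 12.53, 12.54 and 12.61, but the pair is nearly identical in sequence and cross-hybridisation was not tested. The CD3 genes of the T cell receptor complex, Cd3e (2.30, 2.31 and 2.17), Cd3g (2.62, 2.63 and 2.57) and Cd3d (2.31, 2.28 and 2.23), were all under the line. In all, 14 of 16 T cell markers were. Thy1, which other cells also carry, read 7.27, 7.13 and 7.64, and Itgae, the integrin of intraepithelial lymphocytes, read 4.90, 4.90 and 4.74. B cell markers reached the line on every WT array in 6 of 10 cases, the 2 measured defining markers among them, with a list median of 5.51. Dendritic cell markers reached the line on every WT array in 1 of 7 cases. No marker of mast cells (0 of 8), neutrophils (0 of 8) or eosinophils (0 of 4) did. S100a8, an abundant neutrophil product, read 2.89, 2.91 and 2.86. No red blood cell marker did either (0 of 4), with the haemoglobin gene Hba-a1 at 2.39, 2.39 and 2.36. A value under the line shows that the probe set gave no signal above background, not that the cell type was missing.

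**Figure D2:**
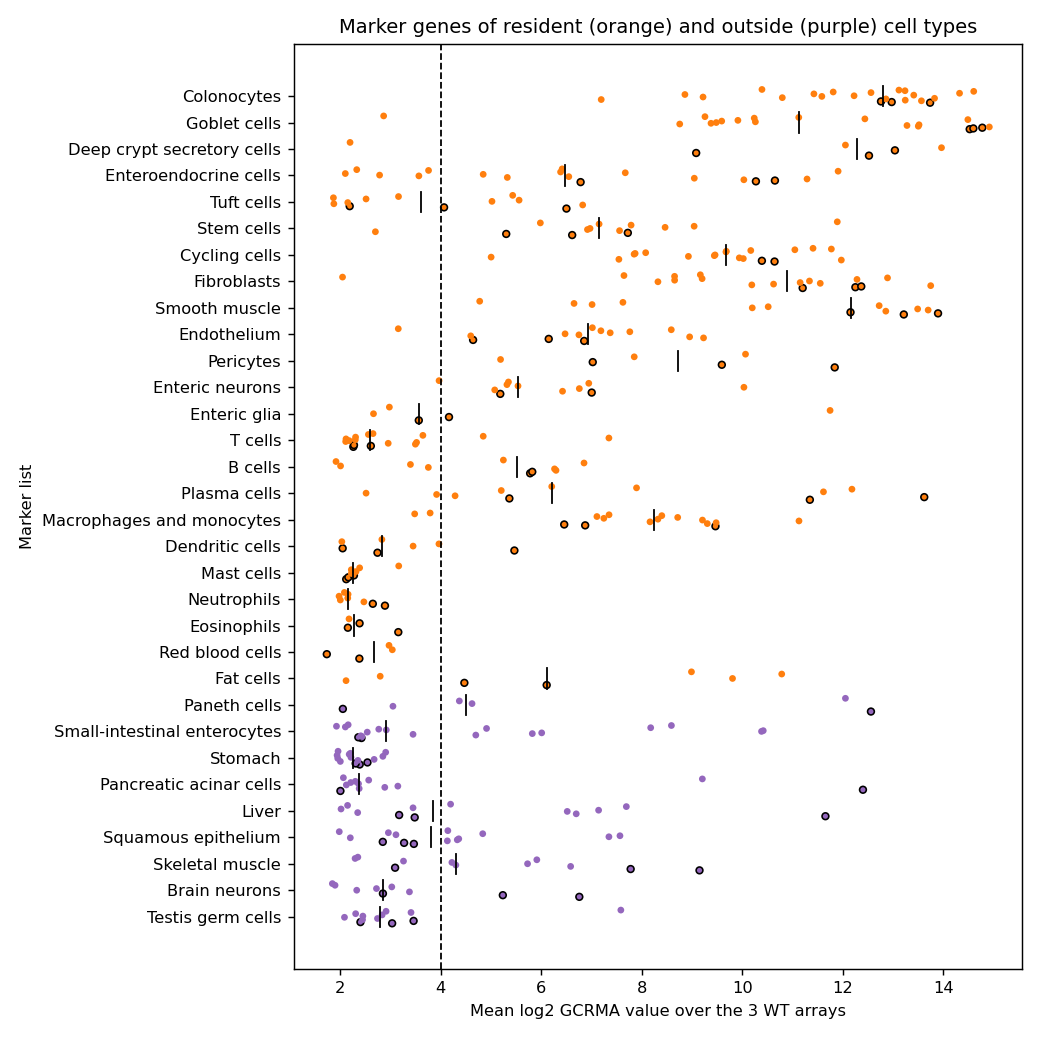
Mean log2 GCRMA value over the 3 WT arrays for each marker gene (points; ringed points are the defining markers of a list), by list; orange lists are cell types of the colon wall or blood and purple lists are of other tissues, vertical bars are list medians and the dashed line is log2 4. Colonocyte, deep crypt secretory and smooth muscle lists have medians of 12.81, 12.29 and 12.16, while the markers of mast cells, neutrophils, eosinophils, red blood cells and stomach all lie under the line.

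Products of neighbouring organs were mostly at background. All 14 stomach markers were under the line, including Gkn1 (2.39, 2.41 and 2.36) and the trefoil gene Tff2 (2.85, 2.88 and 2.81). Of 19 small-intestinal enterocyte markers 7 were above it, among them Slc5a1, the sodium-glucose cotransporter (10.40, 10.31 and 10.55), and Mgam, maltase-glucoamylase (10.45, 10.35 and 10.36). Lct (2.43, 2.44 and 2.39), lactase, and Apoa4 (2.37, 2.38 and 2.33), a chylomicron protein, were not. Of 6 Paneth cell markers 4 were above the line, Lyz1 and Ang4 among them, with Pla2g2a (4.86, 4.87 and 4.14) and Itln1 (4.80, 4.19 and 4.12) close to it. Mmp7, which activates defensins in the small intestine, read 2.06, 2.06 and 2.03, and of 23 defensin genes only Defb45 (mean 7.58) was above the line. Of 12 pancreatic markers Cela1 (12.24, 12.36 and 12.61) and Clps (mean 9.21) were above it, while Cpa1 read 2.01, 2.02 and 1.98. Among liver markers Ttr, transthyretin, read 11.62, 11.42 and 11.92, whereas albumin, Alb, read 3.66, 3.40 and 3.39. Of 12 testis markers only Zan, which encodes a sperm protein, was above the line (7.64, 7.27 and 7.84).

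Gene families differed in the share of members above the line on every WT array, which was 60.8% over all genes. Of 33 Hox genes 15 were above the line, and Hoxb13, a marker of the distal colon, read 11.98, 11.89 and 12.30. Hoxb6, of the proximal colon list, read 2.61, 3.30 and 2.51. In the distal colon list 9 of 11 genes were above the line, with a median of 9.60. In the proximal colon list 5 of 14 were, with a median of 3.83. Of 44 keratin genes 9 were above the line, of 72 cytochrome P450 genes 26, of 28 interleukin genes 6 and of 19 Wnt ligand genes 3. Other families were near or over the share of all genes. Above the line were 24 of 42 collagen chain genes and 203 of 347 solute carrier genes. So were 233 of 336 Zfp zinc finger genes and 46 of 50 ribosomal protein genes. Il18, an epithelial interleukin stored as a precursor, had a mean of 11.87, and Cyp2c55 read 13.13, 13.12 and 13.11. The factors that give the epithelium its identity were nearly complete, with 13 of 14 above the line, among them Klf4 (13.14, 13.19 and 13.19) and Hnf4a (12.38, 12.53 and 12.43).

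Gastrin and its receptors read at background. Gast, the gene deleted in the knockout, read 1.96, 1.97 and 1.93 in WT, 2.14, 2.11 and 1.99 in GasKO and 1.96, 1.95 and 1.95 in hGAS, so the probe set does not check the genotype labels. Cckbr, the gastrin receptor gene, read 1.78, 1.79 and 1.76. Cckar, the receptor gene for cholecystokinin, read 3.62, 3.87 and 2.67. Anxa2, reported as a binding partner of progastrin, was bright at 13.19, 13.36 and 13.24. Of the tyrosine sulfotransferase genes, Tpst2 read 7.69, 7.52 and 7.57 and Tpst1 read 7.42 on each array.

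Spread between the WT arrays was small for most genes and large for a few. Over the 11179 genes with a WT mean of at least log2 4 the median SD was 0.0931, against 0.0800 in GasKO and 0.0928 in hGAS. It was larger at low signal, with a median of 0.136 between log2 4 and 6 and 0.0544 at log2 12 or more. A difference of at least 1 log2 between the highest and lowest WT array was seen for 136 genes (1.22%), against 81 in GasKO and 128 in hGAS. At the other end, 17 genes with a WT mean of at least log2 4 had equal values on all 3 WT arrays, within 1e-06 log2, among them Aebp2 at 9.26, and 26 and 28 did so in GasKO and hGAS. An SD of 0 in such genes is a property of the deposited values, and none of them was equal on all 9 arrays.

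**Figure D3:**
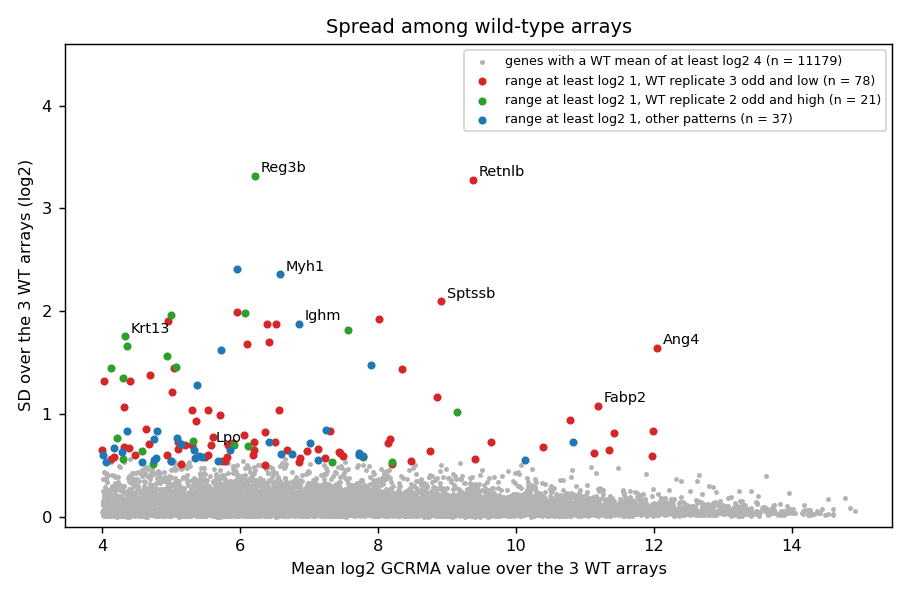
SD over the 3 WT arrays (vertical axis, log2) against the mean log2 GCRMA value (horizontal axis) for the 11179 genes with a WT mean of at least log2 4; coloured points are the 136 genes whose WT arrays differed by 1 log2 or more. The 78 red points, in which WT replicate 3 is the odd and low array, lie across the whole range of signal up to Ang4 at a mean of 12.05.

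In most of these 136 genes the odd array, the one farthest from the mean of the 3, was WT replicate 3, and it was low. This was so for 78 genes (57.4%), while replicate 3 was the odd low array for 17.7% of all 11179 genes. Replicate 2 was the odd high array for 21 of the 136, replicate 3 the odd high array for 12, and the other patterns held 7 to 9 genes each. GasKO and hGAS values entered the choice of the 78 genes only through the probe set that stood for each gene, and in 71 of them WT replicate 3 was below all 8 other arrays. Over all 1978 genes in which replicate 3 was the odd low array, at any range, this was so for 46.6%. The 78 genes were chosen for a wide WT range, so a higher share among them was partly set by that choice. The median of the 78 genes was 5.23 on WT replicate 3, 6.62 and 6.83 on replicates 1 and 2, 6.98 to 7.14 on the GasKO arrays and 7.03 to 7.51 on the hGAS arrays.

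The genes that were low in replicate 3 included products of surface and secretory epithelium. Retnlb, which encodes the antimicrobial goblet cell protein RELM-beta, read 11.85, 10.63 and 5.66 in WT, 13.10, 12.20 and 12.42 in GasKO and 11.51, 11.69 and 11.02 in hGAS. Sptssb, a subunit of serine palmitoyltransferase in sphingolipid synthesis, read 9.95, 10.30 and 6.51. B3gnt6, which makes the core of mucin O-glycans, read 6.74, 7.44 and 3.70. In each case replicate 3 was the lowest of the 9 arrays. Plet1, a surface protein of epithelia, read 8.63, 9.57 and 5.87. Ang4 read 10.27 on replicate 3 against 11.16 or more on every other array, and its other probe set gave 12.15, 10.74 and 8.49. Slc3a1, a subunit of the cystine transporter, read 5.63, 6.43 and 2.81, and Cpn1, carboxypeptidase N, read 7.14, 7.77 and 4.25. Fat cell and liver products were in the set too. Adipoq, adiponectin, read 7.25, 6.90 and 4.18, and Cyp2e1, which liver and fat both express, read 7.80, 7.39 and 4.36. Cyp2e1 was lower still on hGAS replicate 3, at 4.03. Some further genes were picked out after their values were seen: Fabp2, an intestinal fatty acid carrier (11.78, 11.85 and 9.94), Isx, an intestinal homeobox factor (5.64, 5.79 and 3.62), and the interferon-induced genes Ifit1 (6.32, 5.93 and 4.36) and Usp18 (4.95, 4.91 and 3.08).

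Some lists were lower on replicate 3 and others higher. A list score was taken as the mean, over the list's tested genes, of the log2 value minus that gene's mean over the 9 arrays. The goblet cell score (19 genes) was -0.02, -0.05 and -0.53, and of the 18 genes with a WT mean of at least log2 4, 16 were lowest on replicate 3 among the WT arrays. The plasma cell score (10 genes) was -0.43, -0.65 and -1.44. For fat cells (5 genes) the scores were 0.06, 0.04 and -1.33. The antimicrobial score (18 genes) was -0.12, 0.07 and -0.86, but of 17 genes 8 were lowest and 7 highest on replicate 3, and 3 had a range of 1 log2 or more. Proximal colon genes (10 genes) scored -0.60, -0.46 and -1.10 in WT and between 0.78 and 2.05 in hGAS. Of these, Hoxb6, Prap1 and Osr2 were under the line on every WT array and were tested only because the hGAS arrays reached it. That choice of genes builds in part of the difference between WT and hGAS. The Y chromosome score was 0.05, -0.01 and -0.34. The deep crypt secretory score (5 genes) was 0.28, -0.10 and -0.54. The fibroblast, smooth muscle and stem cell lists went the other way. Fibroblasts (17 genes) scored -0.12, -0.09 and 0.09, with 15 of the 17 genes highest on replicate 3 and none lowest. Smooth muscle (13 genes) scored -0.03, 0.12 and 0.17, with 9 highest on replicate 3, and stem cells (12 genes) scored 0.03, -0.02 and 0.14, with 9 highest. The distal colon score (10 genes) was 0.23, 0.33 and 0.01, and like the proximal colon score it was lowest on replicate 3. Paneth cell genes (4 genes) scored 0.28, -0.15 and -0.87, and B cell genes (7 genes) 0.61, -0.29 and -0.31. Among the lists with the least difference, the ion and water transport score (29 genes) was 0.08, 0.09 and 0.08. The endothelial score (13 genes) was -0.01, -0.02 and -0.03. Of the fat list 4 of 7 genes were above the line on every WT array, Car3 leading at 11.16, 11.48 and 9.72, and the part of fat, plasma cells, connective tissue or position along the colon in these differences was not tested.

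**Figure D4:**
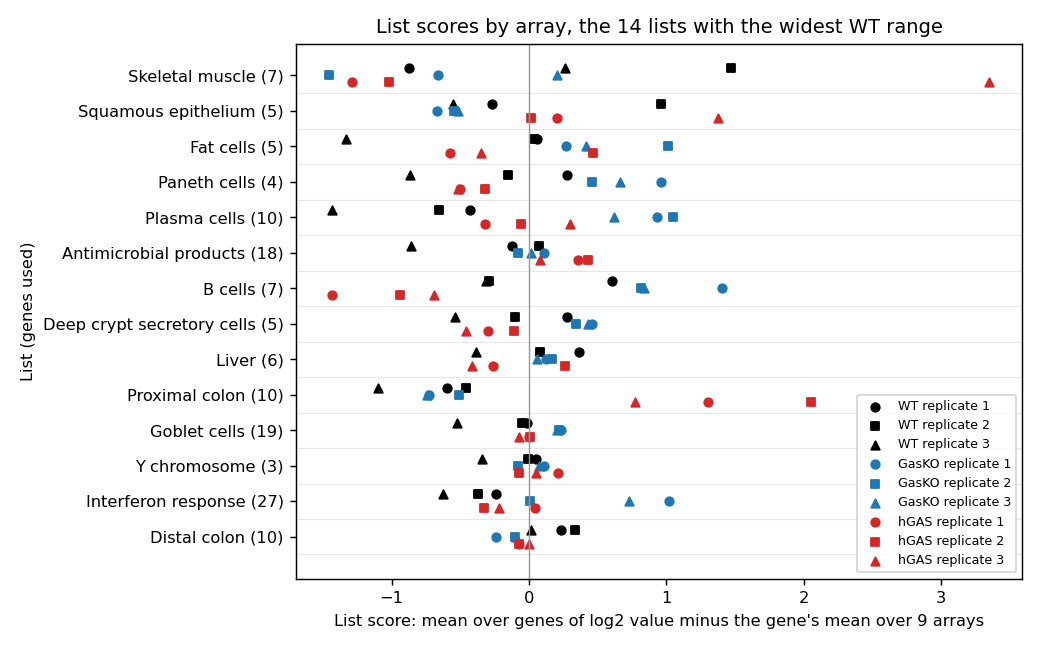
List score on each of the 9 arrays (horizontal axis, log2, relative to each gene's mean over the arrays) for the 14 lists with the widest range among WT arrays; black marks are WT, blue GasKO and red hGAS, and circles, squares and triangles are replicates 1, 2 and 3. The black triangle of WT replicate 3 is the lowest of all marks for fat, Paneth, plasma, antimicrobial, deep crypt secretory, proximal colon and goblet lists, and hGAS replicate 3 is the highest for skeletal muscle at 3.35.

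The genes that were high in replicate 2 included skeletal muscle and squamous epithelial genes, and some of neither kind, such as Tph1 and Mal. Myh8, a skeletal muscle myosin, read 3.05, 6.97 and 4.96. Myl1, a fast skeletal myosin light chain, read 3.62, 6.67 and 4.55, and Ttn, titin, read 3.73, 6.62 and 4.86. A further 3 muscle genes followed the same order but had replicate 1 as the odd, low array. These were Tnnc2 (3.30, 7.99 and 6.59) and Tnni2 (3.99, 7.20 and 5.99), which encode fast troponins, and Myh1 (4.004, 8.63 and 7.12), whose other probe set above the line gave 4.50, 8.41 and 7.04. Acta1, skeletal actin, read 8.24, 10.25 and 8.95. The skeletal muscle score (7 genes) was -0.87, 1.47 and 0.26 in WT, between -1.45 and 0.21 in GasKO, and -1.29, -1.02 and 3.35 in hGAS. In the skeletal muscle list 4 of 11 genes were above the line on every WT array, and the defining gene Myh4 was not (3.11, 3.12 and 3.05). Muscle signal differed between arrays of 1 genotype in WT, GasKO and hGAS, and its source was not tested.

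Squamous epithelial genes were high on the same array. Krt13 (3.17, 6.35 and 3.47), Krt4 (2.94, 6.18 and 3.96) and Krt6a (3.11, 5.79 and 3.50), keratins of stratified epithelium, were above the background line on replicate 2 alone in WT. Sprr1a, a cornified envelope precursor, read 7.55, 9.39 and 5.75 in WT, 6.52, 6.65 and 6.59 in GasKO and 8.82, 8.98 and 9.17 in hGAS. On hGAS replicate 3, the array with the most muscle signal, Krt13 read 6.54, Krt4 6.20 and Krt6a 6.52. The second Krt4 probe set gave 1.77, 5.11 and 1.79, but both other Krt13 probe sets were near 2.2 on every WT array. The squamous score (5 genes) was -0.27, 0.96 and -0.55. It leaves out Krt4 and Krt6a, which reached the line on too few of the 9 arrays to be tested. The defining markers Krt5 (3.42, 3.57 and 3.40) and Trp63 (2.86, 2.87 and 2.81) were under the line on all 3 WT arrays. Of the 21 genes high in replicate 2, 13 were highest on replicate 3 among the hGAS arrays. The muscle gene Myh8 and the keratin genes Krt13, Krt4 and Krt6a are among these 13. The share over all genes was not counted, so the count says nothing about the set as a whole.

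**Figure D5:**
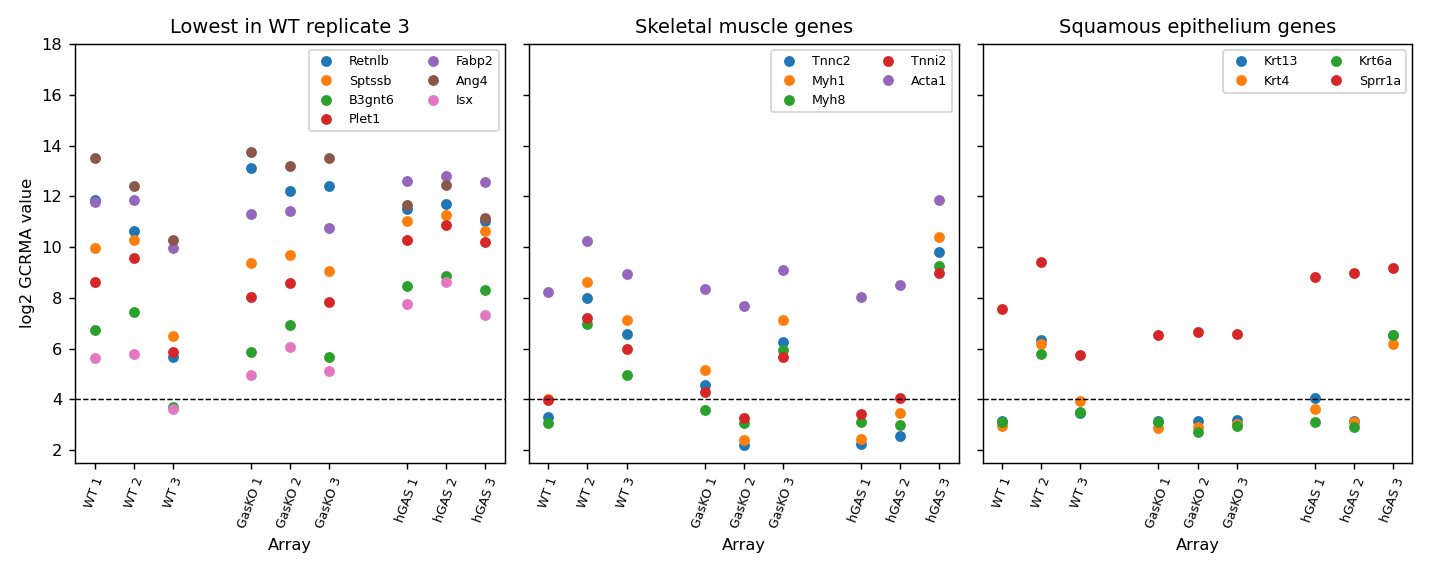
Log2 GCRMA value of single genes on each of the 9 arrays, for genes lowest in WT replicate 3 (left), skeletal muscle genes (middle) and squamous epithelium genes (right); the dashed line is log2 4. Retnlb drops to 5.66 on WT replicate 3, while Myh1 reaches 8.63 on WT replicate 2 and 10.39 on hGAS replicate 3.

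The gene with the largest WT spread, Reg3b, was also highest in replicate 2. It encodes a secreted lectin that kills bacteria, and it read 6.00, 9.63 and 3.01 in WT, with the other probe set at 4.25, 7.99 and 2.59. The GasKO arrays read 3.10, 2.89 and 2.94 and the hGAS arrays 12.31, 12.85 and 9.96, so the hGAS arrays all lay above the WT arrays and the GasKO arrays overlapped them. With this spread neither difference passed: limma's adjusted p was 0.172 for GasKO (log2 difference -3.24, SE 1.37) and 0.0955 for hGAS (5.49, SE 1.37). Each difference takes in WT replicate 3, the lowest WT array. Reg3g, a relative of Reg3b, read 2.54, 5.43 and 2.33 in WT. Immunoglobulin genes also varied. Ighm, the IgM heavy chain, read 8.91, 6.41 and 5.24, but its probe sets differed, with another one at 7.88, 7.57 and 7.47. The variable segments Igkv6-14 (5.84, 8.16 and 4.23) and Iglv1 (9.40, 7.84 and 6.45) had their highest WT arrays in replicates 2 and 1, and such segments cross-hybridise within their family.

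Variability in WT was partly shared with the other groups. Of the 559 genes in the top 5% by WT SD, 139 (24.9%) were also in the top 5% in GasKO and 157 (28.1%) in hGAS. Across the 11179 genes the Spearman correlation of the SDs was 0.262 with GasKO and 0.273 with hGAS, as a description of genes that share array and signal level.

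The sequence before the start of 3 variable genes, picked by hand, is printed because each carries a motif that was searched for in the 250 bases upstream. They are Reg3b (chr6:78370635-78370884, plus strand), Ifit1 (chr19:34640639-34640888, plus strand) and Acta1 (chr8:123894776-123895025, minus strand), all from RefSeq, build GRCm38.p6, written 5′ to 3′ on the gene's strand. Capitals mark TATAAA in Reg3b (29 to 24 bases before the start), matches to GAAA, any 2 bases, GAAA on the opposite strand in Ifit1 (104 to 95 and 85 to 76 bases before it) and CAGCTG in Acta1 (221 to 216 bases before it).
Reg3b: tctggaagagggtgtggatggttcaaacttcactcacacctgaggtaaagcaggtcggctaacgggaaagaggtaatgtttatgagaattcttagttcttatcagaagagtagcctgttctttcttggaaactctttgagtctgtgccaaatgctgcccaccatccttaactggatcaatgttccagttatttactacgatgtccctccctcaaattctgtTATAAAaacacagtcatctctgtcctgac
Ifit1: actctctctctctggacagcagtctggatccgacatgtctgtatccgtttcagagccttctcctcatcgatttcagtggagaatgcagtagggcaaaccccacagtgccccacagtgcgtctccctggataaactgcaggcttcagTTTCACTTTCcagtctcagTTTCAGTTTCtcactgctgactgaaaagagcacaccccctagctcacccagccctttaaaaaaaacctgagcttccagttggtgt
Acta1: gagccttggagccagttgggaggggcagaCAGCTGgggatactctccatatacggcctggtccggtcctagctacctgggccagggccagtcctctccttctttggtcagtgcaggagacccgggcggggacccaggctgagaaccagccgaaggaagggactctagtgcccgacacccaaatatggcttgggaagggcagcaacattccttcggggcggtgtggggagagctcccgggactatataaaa
TATAAA is the TATA box, GAAA with any 2 bases and a second GAAA is the core of the interferon-stimulated response element, and CAGCTG is an E-box of the kind bound by muscle regulatory factors, and both strands were searched for each. TATAAA was in 13% of 27025 promoters, in 5 of 16 (31.3%) of the genes high in replicate 2, which include Reg3b and Acta1, in 11 of 60 (18.3%) of the genes low in replicate 3 and in 16 of 144 (11.1%) of the brightest genes. The TATAAA of Acta1 is not capitalised in the printed sequence. The interferon element was in 3.04% of all promoters, in 10 of 23 (43.5%) of the interferon response list and in 3 of 60 (5.0%) of the genes low in replicate 3, namely Alpi, Ifit1 and Rsad2. CAGCTG was in 12.8% of all promoters and in 7 of 16 (43.8%) of the genes high in replicate 2. These 7 were the muscle genes Acta1, Ckm, Myl1 and Mylpf, the squamous genes Krt13 and Sprr1a, and Diras2. CAGCTG was also in 4 of 8 of the skeletal muscle list and in 6 of 23 (26.1%) of the interferon response list. It was in 8 of 60 (13.3%) of the genes low in replicate 3. The motif was thus not limited to muscle genes. A match describes letters in this window and not a bound site.

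The bright genes of WT mucosa were also compared between WT and the other genotypes. The GasKO and hGAS comparisons share the WT arrays, so their values are not independent. In GasKO 18 of the 182 brightest genes passed limma's test at an adjusted p under 0.05 (9 higher and 9 lower), which is 9.89%, where 12.1% of all 11273 genes did, 6.64% higher and 5.48% lower. In hGAS 7 did (2 higher and 5 lower), which is 3.85%, where 1.16% of all genes did, 0.639% higher and 0.523% lower. The median size of the log2 difference in these 182 genes was 0.0596 in GasKO and 0.0486 in hGAS, against 0.109 and 0.0811 over all genes tested. Of the 30 brightest genes only Rpl13a passed, in GasKO (log2 difference -0.23, SE 0.05, adjusted p = 0.0179), and none passed in hGAS. The Rpl13a call was lost without GasKO replicate 2 or 3.

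Among the bright genes called, Igha was higher in GasKO by 0.95 log2 (14.64, 14.61 and 14.48; limma adjusted p = 0.00717), with all 3 GasKO arrays above the WT arrays. Ly6e, a GPI-anchored surface protein, was higher by 0.57 (adjusted p = 0.000358) and the epithelial adhesion gene Epcam by 0.35 (adjusted p = 0.000526). Car4 was lower than WT in both, by -0.31 in GasKO (13.26, 13.24 and 13.28; adjusted p = 0.0046) and -0.36 in hGAS (13.15, 13.19 and 13.30; adjusted p = 0.0162). In hGAS, Mptx1 was lower by -0.83 (13.01, 13.37 and 13.02; adjusted p = 0.016). Sycn, syncollin of secretory granules, was lower by -0.74 (adjusted p = 0.00256), and Car1 was higher by 0.47 (adjusted p = 0.016). Igha, Ly6e, Epcam, Sycn and the GasKO difference of Car4 passed with any single array left out. In hGAS, Mptx1 was lost without hGAS replicate 1 or 3, Car4 without hGAS replicate 1 or 2, and Car1 without either of those or without WT replicate 1.

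The 100 genes with the largest WT spread included 97 tested. In GasKO 15 of these passed, 14 of them higher, where 12.1% of all genes did and 6.64% were higher, and the count was 25 without WT replicate 3, of which 13 were common to both. In hGAS 5 passed, all higher (Car8, Isx, Prkg2, Slc13a1 and Tmem252), where 0.639% of all genes were higher, and 3 passed without WT replicate 3, of which 1 was common to both. With each of the 9 arrays left out in turn, Car8 kept its call in 3 cases, Slc13a1 in 2, Prkg2 in 1, and Isx and Tmem252 in 0. In 62 of the 100 genes WT replicate 3 was the odd low array, which lowers the WT mean. The choice of genes thus favours calls in the higher direction. A wide WT spread also enters the test itself, so these counts say little about how far the groups differ. Retnlb, for one, differed by 3.20 log2 in GasKO (SE 1.25) with a limma adjusted p of 0.142. That difference rests in part on WT replicate 3, which read 5.66 where WT replicates 1 and 2 read 11.85 and 10.63. The GasKO arrays read 13.10, 12.20 and 12.42. Ifit1 passed in GasKO, with values of 9.69, 8.11 and 9.12 (log2 difference 3.44, adjusted p = 0.00186), and its difference was 2.85 without WT replicate 3.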

How the data were processed

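The 9 arrays hold 45101 probe sets. The deposited values are on a log2 scale and were made by the authors with GCRMA, per the submitters' processing notes (version not given in the sources used here); the values were used as deposited. Gene names came from GEO's platform annotation, set against RefSeq's GRCm38.p6 table by Entrez number (34741 probe sets matched, 0 symbols changed). Of the probe sets, 34945 name 1 gene and were used, 932 name several, 9160 name none and 64 are controls. The probe set with the highest mean over the 9 arrays stood for its gene, which left 18193 genes. Marker lists (50 lists, 672 of 743 entries matched) and the members were chosen with earlier results of these data known.

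Genotypes were compared with limma 3.58.1 (R 4.3.3; lmFit and eBayes with trend) over all 9 arrays without covariates, on 11273 genes that reach log2 4 on at least 3 arrays, with two-sided p-values adjusted by Benjamini-Hochberg and called under 0.05. The SD has 2 degrees of freedom in each group. On simulated data with the same 11273 genes, the GasKO comparison recovered 92% of genes changed by 0.5 log2 and 100% of those changed by 1 to 3 log2, with 18 false calls. The simulated noise was independent and normal, with each gene's WT variance averaged with that of the median SD. Wide spreads were thus shrunk and shifts shared by many genes on 1 array were absent. The recovery does not carry over to genes with a wide spread, such as Retnlb. The text names the 30 brightest genes, the brightest 4 of each list with its defining genes under the line, the 25 most and 5 least variable genes and the called genes among them, in part; others were chosen after their values were seen. Alternatives changed the filter, background line, normalisation, probe set, trend, block or arrays. The number of arrays limits the precision.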

Additional observations from a re-analysis of the deposited data

How the results depend on the processing

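The counts of genes above and under the background line stayed within 1.5 times under each of their 9 alternatives, and no result reversed. When the probe sets of each gene were averaged, the median SD among WT arrays was 0.0772 and 89 genes had a WT range of 1 log2 or more; leaving out 1 WT array gave 0.0663 to 0.0785 and 39 to 108 genes, the lowest of each without WT replicate 3. The count for replicate 3 as the odd low array, 78, ran from 54 to 83 over the alternatives, which were chosen after seeing the data, as were those for calls among bright and variable genes. GasKO vs WT gave 845 to 1372 called genes with 1 array left out, against 1366. For hGAS vs WT, 131 genes became 58 without the filter, 283 with the replicate block (1557 for GasKO) and 17 to 104 with 1 array left out, the fewest without hGAS replicate 1. Among the brightest 1%, the GasKO count of 18 was 11 without the trend and 9 to 22 with 1 array left out. The hGAS count of 7 was 4 without the filter, with averaged probe sets, with probe sets for 1 transcript and without the trend, 13 with the replicate block and 1 to 5 with 1 array left out. Among the 100 variable genes, the GasKO count of 15 was 10 to 25 with 1 array left out. The hGAS count of 5 was 0 without the filter, 1 with averaged probe sets or without the trend, 17 with the replicate block and 0 to 8 with 1 array left out. The labels give no source that same-numbered arrays share, and arrays were taken as paired only if every same-numbered correlation of deviations from the group mean was over 0.1. These ran from -0.0056 to 0.150 for WT with GasKO, 0.0838 to 0.254 for WT with hGAS and 0.117 to 0.267 for GasKO with hGAS, against at most 0.113 for other numbers; every array correlated best with its own number between GasKO and hGAS, but hGAS replicate 2 with WT, and WT replicate 2 and GasKO replicate 2 with each other's group, did not, which is a hint from the data and not the design. The cause of these shifts was not tested. Signal near background limits what can be said of genes under log2 4.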

Other observations

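Stress and daily-rhythm genes can move with handling and time of day. Fos, an immediate early transcription factor gene, read 11.82, 11.73 and 11.90, and Hspa8, a constitutive chaperone gene, read 13.07, 13.27 and 13.25. The clock output gene Dbp read 8.36, 8.92 and 8.71, and Nr1d2, a clock repressor gene, read 10.87, 10.99 and 11.02. No immediate early, clock or heat shock gene with a WT mean of at least log2 4 had a WT range of 1 log2 or more, but the median SDs of these lists, 0.189, 0.152 and 0.128, were above the 0.0931 of all such genes. The clock score (15 genes) was 0.05, 0.18 and 0.29, and 10 of the 15 genes were lowest on replicate 1 and 10 highest on replicate 3. Antigen presentation was visible, with Cd74, the invariant chain of MHC class II, at 11.38, 11.42 and 11.30. Calr (13.01, 13.07 and 12.79) and Hspa5 (12.81, 12.94 and 12.78), chaperones of the endoplasmic reticulum, were bright.

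Of the 9160 probe sets with no gene listed, 2615 (28.5%) were above the background line on all 3 WT arrays. Of these 52 had a WT mean of at least log2 12, and the brightest had a mean of 14.36 ± 0.03 (SD, n = 3).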
